A study of Mus musculus with 18 samples.

Results

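The genes described here are 36 genes of the cell division cycle, chosen by name out of 52636 genes in the count table of a study of mouse retinal pigment epithelium (RPE). They comprise the D and E cyclins of G1 phase, the factors E2f1 and Foxm1, enzymes of DNA replication, Cdk1 with its mitotic cyclins, mitotic kinases and checkpoint proteins, proteins of the centromere and spindle, and the proliferation genes Mki67 and Top2a. All 36 were found once each in the table, and all 36 had enough counts to be tested in each of 7 comparisons. The RPE is the pigmented layer behind the photoreceptors, and the study asked how the nuclear form of SREBP2, a transcription factor of cholesterol metabolism, and the endocytic receptor Lrp2 act in it to set the size of the eye. There were 18 libraries in 6 groups of 3, each made from both eyes of 1 C57BL/6 mouse at postnatal day 14. One group was uninjected, and the other groups received AAV8 virus under the retina at day 0, with GFP, nSrebp2, a control hairpin against LacZ (ctrl sh), Lrp2 sh1 or Lrp2 sh2 driven by the Best1 promoter, which acts in the RPE. Enlarged eyes are described for the nSREBP2, Lrp2 sh1 and Lrp2 sh2 groups. The question put to the 36 genes was whether these groups held more RNA of cell division than their injected controls.

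A cell that divides first makes D cyclins, which with Cdk4 and Cdk6 relieve the block that Rb puts on E2F factors. E2F factors then switch on the genes of DNA replication, and a later wave of genes, driven in part by Foxm1 and B-Myb, serves mitosis. The late genes are nearly silent in cells that have left the cycle, and the RPE of the mouse is largely postmitotic by the second postnatal week, whereas fibroblasts, endothelium and macrophages of the growing eyecup can still divide. The libraries were made from RPE cells freed from eyecups by papain and gentle trituration after the retina was removed. They also held RNA of other cell types, as the markers given below show. In such bulk samples fewer dividing cells and less RNA per dividing cell cannot be told apart.

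Many late cell cycle genes carry 2 short elements near their start site: CCAAT boxes, bound by NF-Y, and the cell cycle homology region TTTGAA, bound by the DREAM and B-Myb complexes. RefSeq promoters of 300 bases, from 250 before to 50 after the start, were matched for 28 of the 36 genes, and 25 of these windows held the start of the gene as GENCODE gives it (all but E2f1, Mcm5 and Cdca8). CCAAT was found on either strand in 23 of these 28 (82.1%), against 37.9% of 27025 promoters, and TTTGAA in 15 (53.6%), against 18.1%. Both stood together in 15 of 28 (53.6%) and in 7.12% of all promoters. The 2 elements overlapped by 1 base in Cdca8 and in no other of the 28. The promoters of Mki67, Top2a and Cdk1, late genes that rose with both nSREBP2 and Lrp2 sh2, are shown. They are written 5′ to 3′ on the strand of the gene (the minus strand for all 3), and capitals mark each CCAAT box and each TTTGAA element, read on either strand. Their windows on GRCm38.p6 are chr7:135716330-135716629 for Mki67, chr11:99024140-99024439 for Top2a and chr10:69352863-69353162 for Cdk1.
Mki67: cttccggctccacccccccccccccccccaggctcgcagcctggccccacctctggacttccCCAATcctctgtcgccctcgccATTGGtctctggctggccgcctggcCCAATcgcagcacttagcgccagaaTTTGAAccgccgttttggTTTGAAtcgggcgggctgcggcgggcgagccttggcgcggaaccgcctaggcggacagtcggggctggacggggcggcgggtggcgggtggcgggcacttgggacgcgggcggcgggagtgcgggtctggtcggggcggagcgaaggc
Top2a: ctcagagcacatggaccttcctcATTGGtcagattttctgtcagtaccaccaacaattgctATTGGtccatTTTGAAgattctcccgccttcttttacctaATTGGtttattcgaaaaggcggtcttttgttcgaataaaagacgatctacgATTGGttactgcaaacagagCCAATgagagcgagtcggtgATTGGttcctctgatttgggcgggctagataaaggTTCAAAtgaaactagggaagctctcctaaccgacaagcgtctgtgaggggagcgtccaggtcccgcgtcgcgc
Cdk1: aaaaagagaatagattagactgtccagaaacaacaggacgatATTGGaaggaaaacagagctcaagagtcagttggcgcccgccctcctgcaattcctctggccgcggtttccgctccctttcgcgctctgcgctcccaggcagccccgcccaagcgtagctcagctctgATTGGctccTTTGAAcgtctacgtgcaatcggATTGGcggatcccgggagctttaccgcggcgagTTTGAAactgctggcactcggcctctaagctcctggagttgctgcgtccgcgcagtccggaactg
Mki67 held 3 CCAAT boxes and 2 TTTGAA elements, Top2a 6 and 2, and Cdk1 3 and 2. A match describes the letters only and was not taken as a bound site.

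Between 8921885 and 13696934 reads were counted on genes per library, and levels are given as CPM, counts scaled to the library's total and by TMM. Srebf2 measured 83.5 to 113 CPM in GFP and 208 to 233 in nSREBP2 (log2FC 1.104 ± 0.11, adjusted P = 0.00012), and Lrp2 fell from 87.7 to 166 CPM in ctrl sh to 29.7 to 42.8 with Lrp2 sh1 and 34.6 to 43.6 with Lrp2 sh2 (log2FC -1.68 ± 0.22 and -1.60 ± 0.21), and it also fell with nSREBP2, from 87.9 to 176 in GFP to 25.1 to 37.7. The 14 RPE markers summed to 7089 to 15637 CPM in uninjected eyes and to 4581 to 5247 CPM in Lrp2 sh2, the group with the lowest mean. Y-linked genes and Xist, which the labels do not cover, showed 6 male mice: all 3 nSREBP2 mice, uninjected replicate 3 and Lrp2 sh2 replicates 2 and 3. All GFP, ctrl sh and Lrp2 sh1 mice were female, so sex and treatment cannot be told apart in nSREBP2 versus GFP.

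In the nSREBP2 group 27 of the 36 genes rose and none fell, and with Lrp2 sh2 20 rose and none fell, whereas with Lrp2 sh1 only E2f1 rose and none fell. A gene was counted as risen or fallen at an adjusted P under 0.05 by the quasi-likelihood test of edgeR with Benjamini-Hochberg adjustment over all genes. Among all genes tested, 12.6% rose and 8.47% fell in nSREBP2 versus GFP, 8.59% rose and 9.48% fell in Lrp2 sh2 versus ctrl sh, and 3.06% rose and 2.28% fell in Lrp2 sh1 versus ctrl sh. The median log2FC of the 36 genes was 0.64 with nSREBP2, 0.65 with Lrp2 sh2 and -0.04 with Lrp2 sh1, beside medians over all genes of -0.02, 0.01 and -0.01. The call of the study, which also asks for a log2FC above 1 in size, was met by 12 genes with nSREBP2, 3 with Lrp2 sh2 (Cdk1, Birc5 and Mki67) and 1 with Lrp2 sh1 (E2f1), where 4.71%, 2.98% and 0.449% of all genes rose by that call. All 3 treated libraries lay above all 3 controls in 31 of the 36 genes with nSREBP2, 26 with Lrp2 sh2 and 2 with Lrp2 sh1 (E2f1 and Mki67), against 19.3%, 17.4% and 13.2% of all genes. The comparisons with Lrp2 sh1 and Lrp2 sh2 share their ctrl sh libraries.

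**Figure D1:**
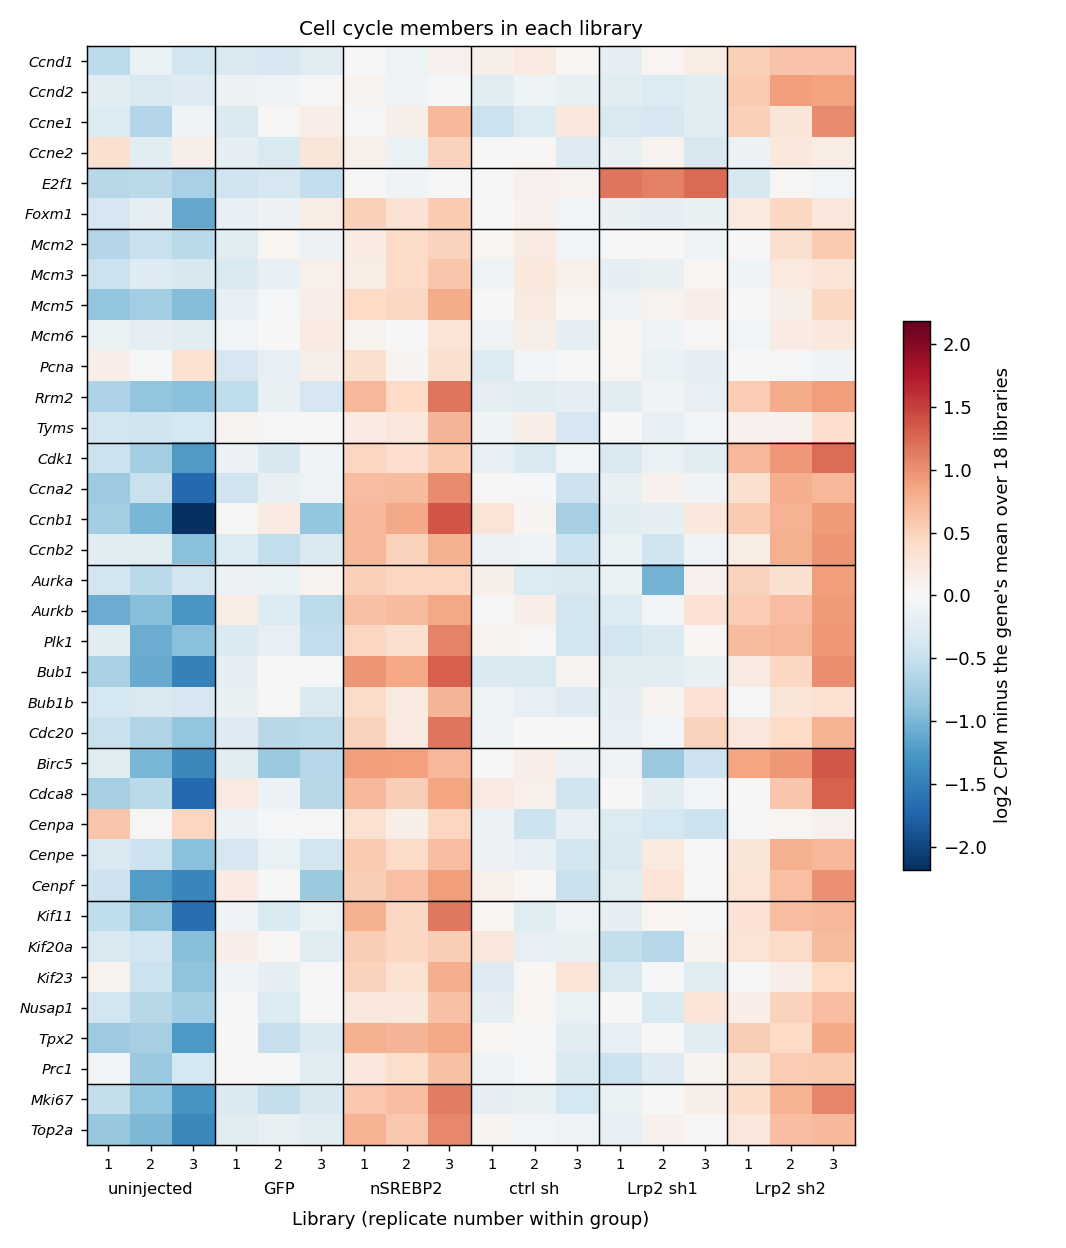
Levels of the 36 genes (rows, in blocks by role) in the 18 libraries (columns, by group and replicate), as log2 CPM minus the mean of the gene over all libraries. The nSREBP2 and Lrp2 sh2 columns are high (red) for most genes, uninjected replicate 3 holds the lowest level of 23 of the 36 genes, and E2f1 is highest in the 3 Lrp2 sh1 libraries.

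Mki67 encodes Ki-67, which coats mitotic chromosomes and is the standard marker of cells in the cycle (chr7:135689784-135716361, GRCm38). It measured 35.2, 27.7 and 20.6 CPM in the uninjected libraries, 40.5, 35.4 and 39.5 in GFP, 76.3, 80.1 and 109 in nSREBP2, 44.2, 45.3 and 38.5 in ctrl sh, 45.8, 49.96 and 55.4 in Lrp2 sh1 and 66.7, 85.2 and 106 in Lrp2 sh2. The nSREBP2 and Lrp2 sh2 libraries lay above all others, and the lowest value was that of uninjected replicate 3. Mki67 rose with nSREBP2 (log2FC 1.21 ± 0.13, adjusted P = 0.00021) and with Lrp2 sh2 (log2FC 1.02 ± 0.15, adjusted P = 0.0017), where the error is the SE of the fit. With Lrp2 sh1 all 3 libraries lay above ctrl sh, but the difference did not pass (log2FC 0.23 ± 0.09, adjusted P = 0.19).

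Top2a encodes topoisomerase II alpha, which untangles sister DNA before mitosis (chr11:98992943-99024189). It measured 19.3, 17.3 and 12.9 CPM in the uninjected libraries, 28.5, 30.6 and 29.1 in GFP, 57.7, 51.3 and 70.3 in nSREBP2, 35.5, 32.5 and 31.5 in ctrl sh, 30.1, 36.3 and 34.9 in Lrp2 sh1 and 40.7, 54.4 and 55.9 in Lrp2 sh2. There was no overlap between nSREBP2 and GFP or between Lrp2 sh2 and ctrl sh, and the Lrp2 sh1 libraries overlapped with ctrl sh. Top2a rose with nSREBP2 (log2FC 1.03 ± 0.11, adjusted P = 0.0002) and with Lrp2 sh2 (log2FC 0.61 ± 0.12, adjusted P = 0.0073), and its difference with Lrp2 sh1 was 0.02 ± 0.09.

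**Figure D2:**
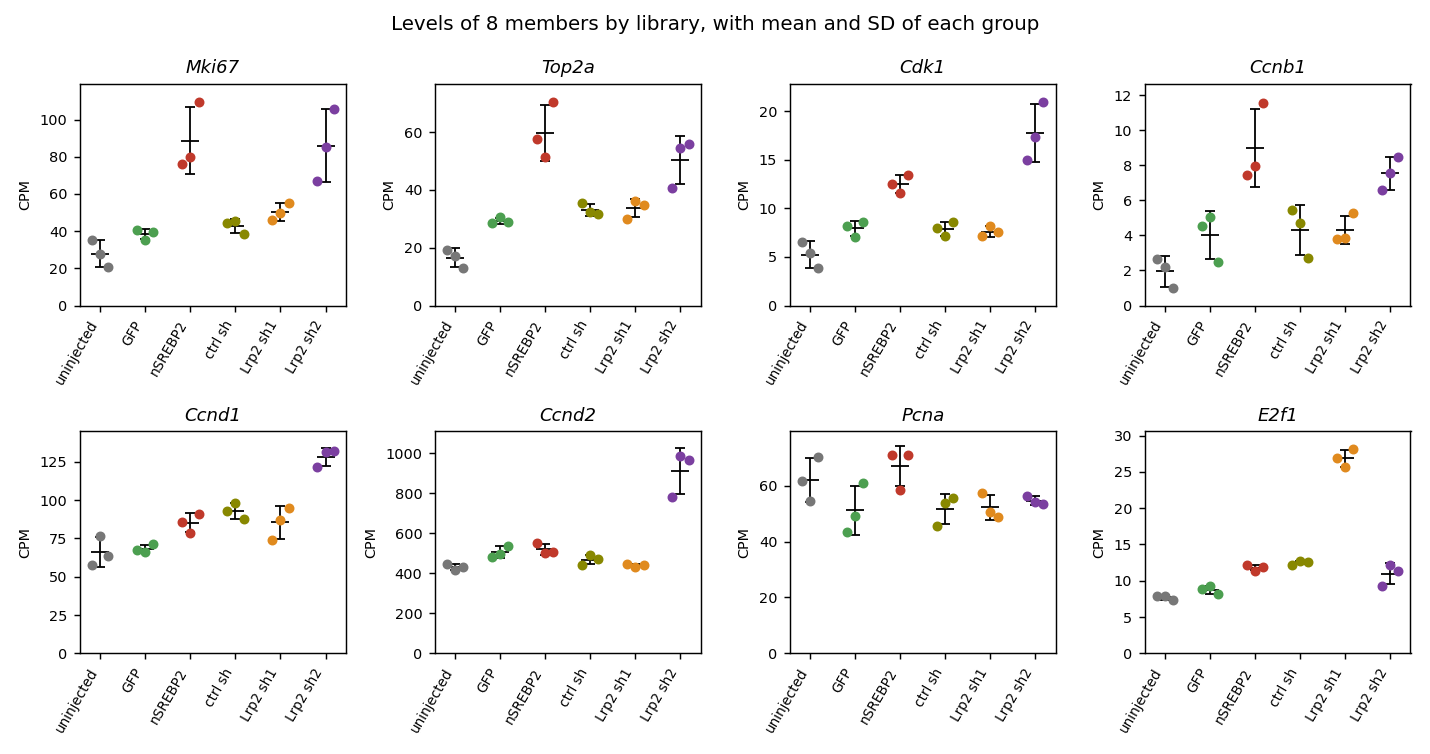
Levels of 8 genes in CPM (linear axes from 0) by group. Dots are libraries, and the bars give mean and SD of the 3 libraries. Mki67, Top2a, Cdk1 and Ccnb1 are high in nSREBP2 and Lrp2 sh2, Ccnd2 in Lrp2 sh2 alone and E2f1 in Lrp2 sh1 alone, and Pcna overlaps between each of nSREBP2, Lrp2 sh1 and Lrp2 sh2 and its injected control.

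Cdk1, the kinase that starts mitosis, and its partners cyclin A2 (Ccna2) and cyclins B1 and B2 (Ccnb1, Ccnb2) rose in 4 of 4 genes with nSREBP2 and in 4 of 4 with Lrp2 sh2, and none passed with Lrp2 sh1. Cdk1 (chr10:69335146-69352938) measured 6.53, 5.41 and 3.82 CPM in the uninjected libraries, 8.21, 7.07 and 8.58 in GFP, 12.5, 11.6 and 13.4 in nSREBP2, 7.98, 7.18 and 8.6 in ctrl sh, 7.11, 8.18 and 7.55 in Lrp2 sh1 and 14.97, 17.3 and 20.9 in Lrp2 sh2. It was higher in each Lrp2 sh2 library than in any nSREBP2 library. Its log2FC was 0.65 ± 0.14 with nSREBP2 (adjusted P = 0.0089), 1.17 ± 0.15 with Lrp2 sh2 (adjusted P = 0.00091), the widest difference among the 36 genes there, and -0.06 ± 0.14 with Lrp2 sh1.

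Ccna2, needed for S phase and entry into mitosis, measured 5.304, 6.57 and 2.84 CPM in the uninjected libraries, 6.75, 8.22 and 8.51 in GFP, 14.6, 14.8 and 18.8 in nSREBP2, 9.28, 8.98 and 6.66 in ctrl sh, 8.14, 9.83 and 8.74 in Lrp2 sh1 and 11.7, 15.97 and 15.1 in Lrp2 sh2. Ccnb1 measured 2.65, 2.22 and 0.982 CPM in the uninjected libraries, 4.53, 5.04 and 2.48 in GFP, 7.44, 7.97 and 11.5 in nSREBP2, 5.47, 4.68 and 2.698 in ctrl sh, 3.79, 3.88 and 5.26 in Lrp2 sh1 and 6.61, 7.56 and 8.49 in Lrp2 sh2. Ccnb2 measured 4.39, 4.35 and 2.73 CPM in the uninjected libraries, 4.19, 3.54 and 4.14 in GFP, 8.46, 7.27 and 8.81 in nSREBP2, 4.68, 4.76 and 3.71 in ctrl sh, 4.66, 3.799 and 4.84 in Lrp2 sh1 and 5.73, 8.83 and 9.99 in Lrp2 sh2. In all 3 genes the nSREBP2 libraries lay above the GFP libraries and the Lrp2 sh2 libraries above the ctrl sh libraries, and for Ccnb1 replicate 3 of GFP and of ctrl sh stood low in its group. Ccna2 rose with nSREBP2 (log2FC 1.04 ± 0.15, adjusted P = 0.0012) and Lrp2 sh2 (log2FC 0.78 ± 0.17, adjusted P = 0.013), as did Ccnb2 (log2FC 1.050 ± 0.18 and 0.90 ± 0.23). Ccnb1 rose with nSREBP2 (log2FC 1.17 ± 0.28, adjusted P = 0.015) and, close to the threshold, with Lrp2 sh2 (log2FC 0.82 ± 0.25, adjusted P = 0.047), a call that was kept in 1 of the 6 fits that left out a library. A pseudogene is annotated for each of Ccnb1 and Ccnb2, so reads could be split between the copies, and the exons of Ccna2 overlap those of Exosc9.

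Of the 6 mitotic kinases, checkpoint proteins and Cdc20, 5 rose with nSREBP2, 4 with Lrp2 sh2 and none with Lrp2 sh1. Bub1, a kinase of the spindle checkpoint, measured 2.04, 1.55 and 1.201 CPM in the uninjected libraries, 2.91, 3.36 and 3.24 in GFP, 6.51, 5.96 and 8.26 in nSREBP2, 2.66, 2.65 and 3.46 in ctrl sh, 2.77, 2.81 and 2.97 in Lrp2 sh1 and 3.82, 4.54 and 6.74 in Lrp2 sh2. It rose with nSREBP2 (log2FC 1.13 ± 0.21, adjusted P = 0.0039), while with Lrp2 sh2 the libraries did not overlap with ctrl sh and the difference did not pass (log2FC 0.79 ± 0.26, adjusted P = 0.06). Cdc20, which activates the ligase that ends mitosis, measured 5.202, 4.64 and 4.04 CPM in the uninjected libraries, 5.98, 4.77 and 4.89 in GFP, 10.3, 8.32 and 16.3 in nSREBP2, 6.83, 7.26 and 7.33 in ctrl sh, 6.48, 7.02 and 10.4 in Lrp2 sh1 and 8.68, 9.83 and 12.4 in Lrp2 sh2. It rose with nSREBP2 (log2FC 1.16 ± 0.25, adjusted P = 0.009) and with Lrp2 sh2 (log2FC 0.54 ± 0.16, adjusted P = 0.046). The exons of Cdc20 overlap those of Elovl1, so its count is uncertain. The kinases Plk1 and Aurkb rose in both (log2FC 1.02 ± 0.26 and 0.94 ± 0.23 with nSREBP2, 0.89 ± 0.20 and 0.81 ± 0.20 with Lrp2 sh2). Aurka rose with Lrp2 sh2 (log2FC 0.76 ± 0.22, adjusted P = 0.038) and missed the threshold with nSREBP2 (log2FC 0.55 ± 0.18, adjusted P = 0.057). The checkpoint gene Bub1b did the reverse (log2FC 0.62 ± 0.16 with nSREBP2, adjusted P = 0.024, and 0.39 ± 0.14 with Lrp2 sh2, adjusted P = 0.078).

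Among 5 genes of the centromere and the chromosomal passenger complex, 4 rose with nSREBP2 and 3 with Lrp2 sh2. Birc5 encodes survivin, the subunit that brings Aurora B to the centromere (chr11:117849251-117855743). It measured 1.94, 1.16 and 0.873 CPM in the uninjected libraries, 1.97, 1.33 and 1.51 in GFP, 4.37, 4.29 and 3.81 in nSREBP2, 2.302, 2.58 and 2.11 in ctrl sh, 2.13, 1.32 and 1.697 in Lrp2 sh1 and 4.22, 4.45 and 5.91 in Lrp2 sh2. Its levels were low, and the nSREBP2 and Lrp2 sh2 libraries did not overlap with their controls. Birc5 had the widest difference of the 36 genes with nSREBP2 (log2FC 1.38 ± 0.24, adjusted P = 0.0033) and also rose with Lrp2 sh2 (log2FC 1.07 ± 0.22, adjusted P = 0.0095). With Lrp2 sh1 it was -0.44 ± 0.25 (adjusted P = 0.39).

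Cenpe, a motor that attaches chromosomes to microtubules, measured 7.85, 7.15 and 5.24 CPM in the uninjected libraries, 7.61, 8.93 and 7.45 in GFP, 14.6, 13.2 and 15.8 in nSREBP2, 9.06, 8.66 and 7.504 in ctrl sh, 7.82, 11.5 and 10.01 in Lrp2 sh1 and 11.9, 16.8 and 16.3 in Lrp2 sh2. It rose with nSREBP2 (log2FC 0.87 ± 0.14, adjusted P = 0.0017) and Lrp2 sh2 (log2FC 0.84 ± 0.16, adjusted P = 0.0067). Cenpf, another kinetochore protein, rose in both (log2FC 0.87 ± 0.22 and 0.77 ± 0.20), and Cdca8, which encodes borealin, passed with nSREBP2 and not with Lrp2 sh2 (0.86 ± 0.24, against 0.75 ± 0.33 with Lrp2 sh2, adjusted P = 0.15). Cenpa, the histone that marks centromeres, passed in none of the 3 comparisons. It measured 11.9 to 17.9 CPM in uninjected eyes, 10.8 to 11.5 in GFP and 8.51 to 10.7 in ctrl sh, and its median was highest in the uninjected group of these 3, as were those of Ccne2 and Pcna.

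Of 6 genes of the spindle and midbody, 5 rose with nSREBP2 and 4 with Lrp2 sh2. Tpx2, which nucleates spindle microtubules and activates Aurora A, measured 5.92, 6.19 and 4.26 CPM in the uninjected libraries, 10.1, 7.16 and 8.21 in GFP, 17.4, 17.1 and 18.4 in nSREBP2, 10.5, 10.3 and 8.68 in ctrl sh, 9.01, 10.3 and 8.74 in Lrp2 sh1 and 14.9, 13.8 and 18.1 in Lrp2 sh2. Kif11, the motor that separates the spindle poles, measured 7.04, 5.61 and 3.27 CPM in the uninjected libraries, 9.83, 8.22 and 9.34 in GFP, 17.8, 14.1 and 22.97 in nSREBP2, 10.6, 8.59 and 9.696 in ctrl sh, 9.01, 10.7 and 10.2 in Lrp2 sh1 and 12.8, 16.4 and 17.2 in Lrp2 sh2. Prc1, which bundles microtubules of the midzone, measured 11.02, 6.57 and 8.84 CPM in the uninjected libraries, 11.6, 11.2 and 9.64 in GFP, 13.5, 15.1 and 17.9 in nSREBP2, 10.6, 11.3 and 9.11 in ctrl sh, 8.299, 9.41 and 12.05 in Lrp2 sh1 and 13.8, 16.8 and 17.2 in Lrp2 sh2. The nSREBP2 libraries lay above GFP and the Lrp2 sh2 libraries above ctrl sh in all 3 genes. Tpx2 rose with nSREBP2 (log2FC 1.06 ± 0.14, adjusted P = 0.00068) and Lrp2 sh2 (log2FC 0.67 ± 0.14, adjusted P = 0.011), and Kif11 likewise (log2FC 1.005 ± 0.18 and 0.69 ± 0.15). Prc1 rose in both (0.52 ± 0.14 and 0.63 ± 0.14), and its exons overlap those of Rccd1. The kinesins Kif20a and Kif23, which act in cytokinesis, passed with nSREBP2 alone (0.55 ± 0.16 and 0.66 ± 0.15, against 0.5 ± 0.18 and 0.17 ± 0.18 with Lrp2 sh2), and Nusap1 passed with Lrp2 sh2 alone (0.56 ± 0.17, against 0.5 ± 0.17). Whether the effects of nSREBP2 and Lrp2 sh2 differ in these genes was not tested.

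Of the 7 genes of DNA replication, 4 rose with nSREBP2, Rrm2 rose with Lrp2 sh2, and none passed with Lrp2 sh1. The count of 1 gene with Lrp2 sh2 lies near the 8.59% of all genes that rose there. Rrm2, the small subunit of ribonucleotide reductase, measured 5.51, 4.83 and 4.69 CPM in the uninjected libraries, 5.98, 7.87 and 6.85 in GFP, 14.6, 11.9 and 19.8 in nSREBP2, 7.696, 7.49 and 7.59 in ctrl sh, 7.51, 8.34 and 7.81 in Lrp2 sh1 and 12.98, 15.5 and 16.5 in Lrp2 sh2. It rose with nSREBP2 (log2FC 1.17 ± 0.20, adjusted P = 0.0028) and with Lrp2 sh2 (log2FC 0.99 ± 0.13, adjusted P = 0.0011), and all libraries of both groups lay above every other library. Pcna, the sliding clamp of DNA polymerase, measured 61.8, 54.6 and 70.3 CPM in the uninjected libraries, 43.4, 49.3 and 60.9 in GFP, 71.2, 58.7 and 71.0 in nSREBP2, 45.7, 53.9 and 55.7 in ctrl sh, 57.5, 50.5 and 48.9 in Lrp2 sh1 and 56.6, 54.2 and 53.4 in Lrp2 sh2. The nSREBP2 libraries overlapped with GFP and uninjected and lay above ctrl sh and both Lrp2 hairpin groups, and Pcna passed in none of the comparisons (log2FC 0.39 ± 0.12 with nSREBP2, adjusted P = 0.052; 0.09 ± 0.08 with Lrp2 sh2). Pcna and Tyms have annotated pseudogenes, and Pcna also serves DNA repair. The helicase subunits Mcm2, Mcm3 and Mcm5 rose with nSREBP2 by 0.49, 0.54 and 0.60 on the log2 scale (SE 0.12, 0.15 and 0.14), whereas with Lrp2 sh2 their log2FC was 0.28 ± 0.14, 0.06 ± 0.13 and 0.13 ± 0.14 and none passed. Mcm6 and Tyms, the enzyme that makes thymidylate, passed in none of the 3 comparisons.

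E2f1, the factor that switches on genes of S phase (chr2:154559407-154569892), was the one gene of the 36 to rise with Lrp2 sh1. It measured 7.85, 7.93 and 7.31 CPM in the uninjected libraries, 8.804, 9.28 and 8.21 in GFP, 12.2, 11.4 and 11.9 in nSREBP2, 12.2, 12.7 and 12.6 in ctrl sh, 26.9, 25.7 and 28.1 in Lrp2 sh1 and 9.32, 12.1 and 11.4 in Lrp2 sh2. The 3 Lrp2 sh1 libraries lay above every other library, and the 3 Lrp2 sh2 libraries lay just below ctrl sh. The difference was 1.101 ± 0.09 with Lrp2 sh1 (adjusted P = 0.00029), 0.44 ± 0.13 with nSREBP2 (adjusted P = 0.035) and -0.18 ± 0.13 with Lrp2 sh2 (adjusted P = 0.38). The call with Lrp2 sh1 was kept without any single library, and that with nSREBP2 in none of those 6 fits. Foxm1, the factor of the mitotic wave, rose with nSREBP2 (log2FC 0.52 ± 0.14, adjusted P = 0.023) and not with the hairpins (log2FC -0.21 ± 0.11 with Lrp2 sh1 and 0.30 ± 0.12 with Lrp2 sh2).

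Among the 4 G1 cyclins, 1 rose with nSREBP2, 2 with Lrp2 sh2 and none with Lrp2 sh1. Ccnd1 (chr7:144929931-144939925) measured 57.5, 76.8 and 63.5 CPM in the uninjected libraries, 67.4, 66.2 and 71.2 in GFP, 86.02, 78.8 and 91.2 in nSREBP2, 92.9, 97.95 and 87.5 in ctrl sh, 74.1, 87.4 and 94.9 in Lrp2 sh1 and 122, 131 and 132 in Lrp2 sh2. Ccnd2 (chr6:127125162-127152193) measured 446, 418 and 434 CPM in the uninjected libraries, 482, 498 and 538 in GFP, 553, 500.0 and 509 in nSREBP2, 444, 491 and 471 in ctrl sh, 447, 429.7 and 442 in Lrp2 sh1 and 779.8, 987 and 969 in Lrp2 sh2. The Lrp2 sh2 libraries stood alone at the top in both. Ccnd1 rose with nSREBP2 (log2FC 0.33 ± 0.07, adjusted P = 0.012) and with Lrp2 sh2 (log2FC 0.48 ± 0.07, adjusted P = 0.0017), and Ccnd2 rose with Lrp2 sh2 (log2FC 0.97 ± 0.10, adjusted P = 0.00031) but not with nSREBP2 (log2FC 0.05 ± 0.07, adjusted P = 0.7). Levels were also taken per kilobase of the merged exons of all annotated transcripts. This length can exceed that of the transcripts present, so close ranks between genes are uncertain. By this measure Ccnd2 had the highest median of the 36 genes in uninjected eyes, 46.1 CPM per kb, before Pcna at 25.8 and Ccnd1 at 13.5. Mki67 stood at 2.76 and Birc5, the lowest, at 0.341 CPM per kb, close to Bub1 at 0.355 and Cenpf at 0.357. The E cyclins Ccne1 and Ccne2, which start DNA replication, passed in none of the 3 comparisons (1.84 to 2.73 and 6.28 to 9.59 CPM in uninjected eyes). Ccnd1, Ccnd2 and Ccne2 share exon sequence with neighbouring annotated genes. So do Cdca8, Foxm1, Kif20a, Nusap1, Plk1 and Top2a among the genes described above, and the counts of these are uncertain as well.

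**Figure D3:**
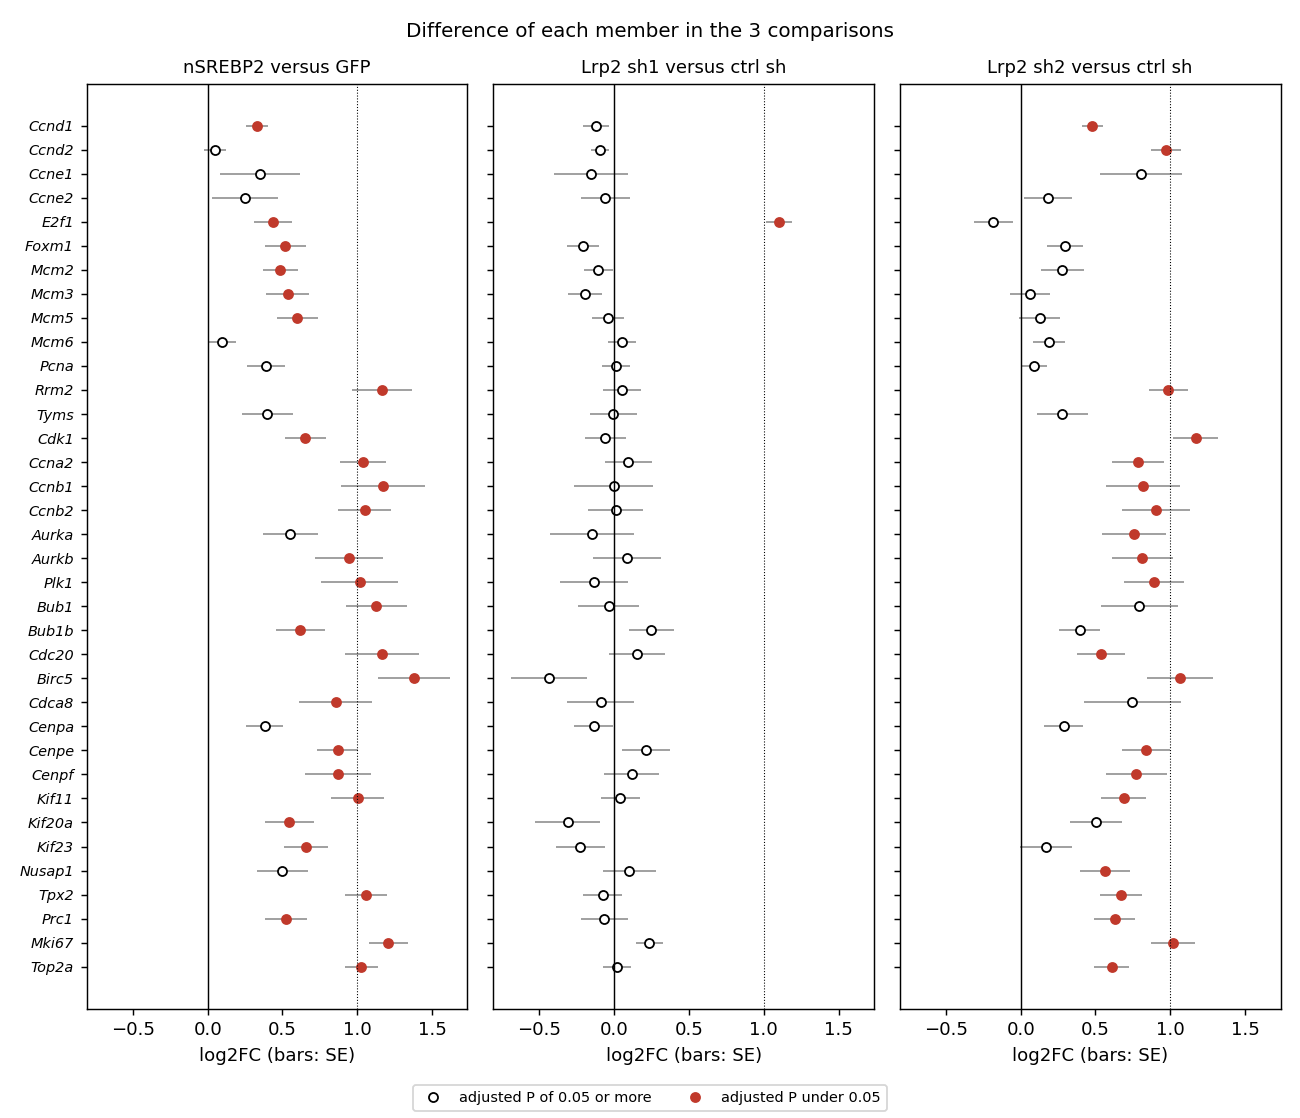
The log2FC of each of the 36 genes, with its SE as a bar, for nSREBP2 against GFP and for each Lrp2 hairpin against ctrl sh; filled dots passed at an adjusted P under 0.05, and the dotted line marks a log2FC of 1. Filled dots number 27, 1 and 20 in the 3 panels, and the 1 of Lrp2 sh1 is E2f1.

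Taken by gene, 17 rose both with nSREBP2 and with Lrp2 sh2, which is 17 of the 27 with nSREBP2 and of the 20 with Lrp2 sh2. Those that passed with nSREBP2 and not with Lrp2 sh2 were 10: Bub1, Bub1b, Cdca8, E2f1, Foxm1, Kif20a, Kif23, Mcm2, Mcm3 and Mcm5. Aurka, Ccnd2 and Nusap1 passed with Lrp2 sh2 and not with nSREBP2. Passing in either comparison alone does not show that the effects of nSREBP2 and Lrp2 sh2 differ, and this was not tested. Ccne1, Ccne2, Cenpa, Mcm6, Pcna and Tyms passed in none of the 3 comparisons.

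The number of genes that passed changed when a library was left out, in fits that also have fewer libraries to test with. For nSREBP2 it was 16 without GFP replicate 2 and 17 without nSREBP2 replicate 3. For Lrp2 sh2 it was 11 without ctrl sh replicate 3 and 13 without Lrp2 sh2 replicate 2 or replicate 3. Over all such fits the median log2FC stayed at 0.55 to 0.72 with nSREBP2 and at 0.52 to 0.73 with Lrp2 sh2. When sex entered the model beside the group, over all 18 libraries, 8 genes rose with nSREBP2 (Birc5, Ccna2, Foxm1, Kif11, Mki67, Rrm2, Top2a and Tpx2). With Lrp2 sh2 9 rose (Birc5, Ccna2, Ccnd1, Ccnd2, Cdk1, Cenpe, Mki67, Rrm2 and Tpx2), and the median log2FC was 0.65 with nSREBP2 and 0.56 with Lrp2 sh2. Only the uninjected and Lrp2 sh2 groups held both sexes, so the sex term came from those groups alone. The 8 calls with nSREBP2 therefore do not separate sex from treatment. The female Lrp2 sh2 library alone, against ctrl sh, gave 4 genes that rose (Ccnd2, Cdk1, Mki67 and Rrm2) and a median log2FC of 0.39, with the lone library assumed to vary like ctrl sh. That fit was chosen after seeing the data. The male uninjected library, replicate 3, was the lowest of all 18 for Mki67, Top2a and Cdk1. In Lrp2 sh2 both male libraries lay above the female one for the same genes. The values were 85.2 and 106 against 66.7 CPM for Mki67, 54.4 and 55.9 against 40.7 for Top2a and 17.3 and 20.9 against 14.97 for Cdk1.

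The direct comparison of the hairpins, Lrp2 sh2 versus Lrp2 sh1, had 23 of the 36 genes higher with Lrp2 sh2 and 1, E2f1, lower, where 10.2% of all genes were higher and 12.3% lower. The median log2FC was 0.65. The widest difference was that of Birc5 (log2FC 1.5 ± 0.25, adjusted P = 0.0022), followed by the fall of E2f1 (log2FC -1.29 ± 0.12, adjusted P = 5.1e-05), and Cdk1 (1.23 ± 0.15), Ccnd2 (1.06 ± 0.09) and Mki67 (0.78 ± 0.14) were also higher. Both hairpins lowered Lrp2 to overlapping levels. Without Lrp2 sh1 replicate 1 the genes higher numbered 13, without Lrp2 sh1 replicate 2 or Lrp2 sh2 replicate 3 they numbered 14, and among female libraries alone they numbered 6, with E2f1 lower in each of these fits.

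All 3 libraries lay above all 3 uninjected libraries in 19 of the 36 genes for GFP and 24 for ctrl sh, against 13.8% and 17.2% of all genes. In GFP versus uninjected 33 of 36 log2FC were above 0 with a median of 0.40, but only Mcm5 (log2FC 0.82 ± 0.14, adjusted P = 0.024) and Top2a (log2FC 0.82 ± 0.14, adjusted P = 0.024) rose, against 0.662% of all genes. The widest difference, that of Ccnb1, did not pass (log2FC 1.01 ± 0.40, adjusted P = 0.21). RPE markers moved with this comparison: 8 of 14 fell, against 1.82% of all genes, with a median log2FC of -2.51 over the 14, whereas in ctrl sh versus uninjected none of 14 passed (median -0.97). Their part in the levels of the cell cycle genes was not tested. In ctrl sh versus uninjected the median was 0.55, and 6 genes rose, against 3.13% of all genes: Ccnd1, E2f1, Mcm2, Mcm5, Top2a and Tpx2, with Mcm5 at 0.93 ± 0.13 and Top2a at 0.999 ± 0.15. Ccnb1 again had the widest difference (log2FC 1.12 ± 0.39, adjusted P = 0.11). No gene passed in GFP versus uninjected when any of 5 of the 6 libraries was left out (each but uninjected replicate 1), and in ctrl sh versus uninjected 2 passed without uninjected replicate 3 or ctrl sh replicate 3 and 1 without ctrl sh replicate 2. All 18 libraries in 1 fit gave 8 genes that rose in GFP versus uninjected, and 16 that rose and 1 that fell in ctrl sh versus uninjected. Against uninjected eyes in place of the injected controls, 32 genes rose with nSREBP2, 32 with Lrp2 sh2 and 13 with Lrp2 sh1, where Cenpa fell.

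Taken as 1 contrast, the mean of the 3 enlarged-eye groups against the mean of GFP and ctrl sh, 23 genes rose and none fell in the 15 injected libraries, against 12.3% of all genes that rose. The median log2FC was 0.47, the widest that of Mki67 (log2FC 0.84 ± 0.10, adjusted P = 2.2e-05), and no gene reached a log2FC of 1. Of the 9 enlarged-eye mice 5 were male and of the 6 controls none, and with a sex term 11 genes rose. The medians of the 3 groups against their own controls were 0.64, -0.04 and 0.65. In the summed level of the 36 genes, GFP had 939.8 to 1023 CPM, nSREBP2 1161 to 1346, ctrl sh 958 to 1031, Lrp2 sh1 945 to 997 and Lrp2 sh2 1410.2 to 1775. The 3 Lrp2 sh1 libraries lay within the range of the injected controls, and Ccnd2 alone gave 779.8 to 987 CPM of the Lrp2 sh2 sums.

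The CDK inhibitors, which hold cells out of the cycle, moved in both directions. Cdkn2b, the p15 inhibitor of Cdk4 and Cdk6, measured 0.816, 1.06 and 0.437 CPM in the uninjected libraries, 0.684, 0.531 and 0.753 in GFP, 13.2, 7.79 and 11.6 in nSREBP2, 0.719, 0.937 and 1.01 in ctrl sh, 1.26, 0.991 and 1.87 in Lrp2 sh1 and 5.73, 7.99 and 7.74 in Lrp2 sh2. It was at most 1.87 CPM in every library outside nSREBP2 and Lrp2 sh2, and it rose in both by more than any of the 36 genes (log2FC 4.02 ± 0.29, adjusted P = 1.8e-05, and 3.01 ± 0.25 with Lrp2 sh2, adjusted P = 0.00012). With Lrp2 sh1 its log2FC was 0.62 ± 0.34 (adjusted P = 0.36).

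Cdkn1a, the p21 inhibitor that p53 induces, measured 47.7, 38.0 and 59.7 CPM in the uninjected libraries, 106, 99.3 and 90.96 in GFP, 88.5, 68.7 and 77.6 in nSREBP2, 36.6, 89.5 and 121 in ctrl sh, 433, 355 and 428 in Lrp2 sh1 and 248, 269 and 305 in Lrp2 sh2. Both hairpin groups lay above every other library, with Lrp2 sh1 above Lrp2 sh2, and the ctrl sh libraries were spread widely. Cdkn1a rose with Lrp2 sh1 (log2FC 2.30 ± 0.33, adjusted P = 0.0046) and Lrp2 sh2 (log2FC 1.74 ± 0.33, adjusted P = 0.0062), and fell with nSREBP2 (log2FC -0.33 ± 0.10, adjusted P = 0.039), a call kept in 2 of 6 fits that left out a library. Cdkn1c, which encodes p57, measured 58.04, 70.9 and 68.4 CPM in ctrl sh and 37.04, 36.1 and 41.97 in Lrp2 sh2 and fell there (log2FC -0.77 ± 0.09, adjusted P = 0.00076). Cdkn2a had too few counts to be tested. Cdkn1b, Cdkn2c and Cdkn2d passed in none of the 3 comparisons, with log2FC of 0.04 ± 0.08, 0.36 ± 0.17 and 0.38 ± 0.17 with nSREBP2.

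**Figure D4:**
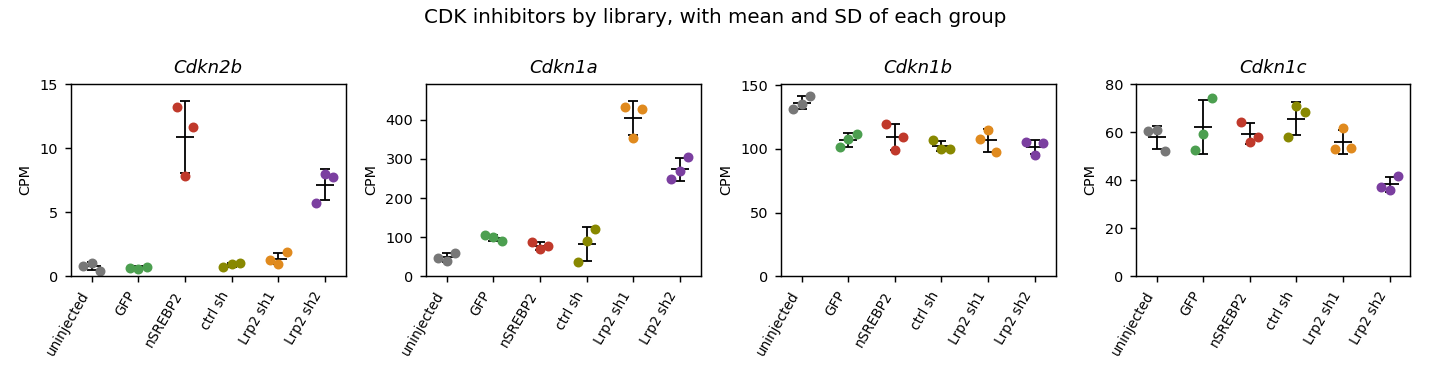
Levels of 4 CDK inhibitors in CPM (linear axes from 0) by group, with dots for libraries and bars for mean and SD of 3 libraries. Cdkn2b is high in nSREBP2 and Lrp2 sh2, Cdkn1a in both Lrp2 hairpin groups and highest in Lrp2 sh1, and Cdkn1c is lowest in Lrp2 sh2.

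Of 5 other G1 kinases and cyclins, 2 rose with Lrp2 sh2, Cdk6 (0.73 ± 0.06) and Cdk4 (0.42 ± 0.07), and 1 with nSREBP2, Cdk4 (0.30 ± 0.07). Among 17 genes of the Rb family, other E2F factors and the DREAM complex, 3 rose and 2 fell with nSREBP2, among them the repressors E2f7 (0.63 ± 0.18) and E2f8 (1.13 ± 0.27), and the fall of Rb1 (-0.26 ± 0.06). These counts lie near the 12.6% and 8.47% of all genes that rose and fell there. Tfdp2, a partner of E2F, fell with nSREBP2 (-0.35 ± 0.06) and Lrp2 sh2 (-0.28 ± 0.07).

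In 20 other genes of the spindle and cytokinesis 16 rose with nSREBP2, 13 with Lrp2 sh2 and none with Lrp2 sh1, with Aspm at 0.89 ± 0.14 and 0.85 ± 0.18, Racgap1 at 0.98 ± 0.16 and 0.83 ± 0.17 and Ckap2 at 0.82 ± 0.26 and 0.97 ± 0.16. Kif18b rose with nSREBP2 (1.08 ± 0.21). In 29 other genes of DNA replication that were tested 9 rose with nSREBP2 and 4 with Lrp2 sh2, with Pole (0.86 ± 0.17), Uhrf1 (0.88 ± 0.17) and Dut (0.61 ± 0.13) for nSREBP2 and Tk1 for both (0.36 ± 0.11 and 0.60 ± 0.10). Of the other kinetochore and checkpoint genes 6 of 18 rose with nSREBP2 and 2 of 17 with Lrp2 sh2, Knl1 (0.90 ± 0.20 and 0.75 ± 0.15) in both, Ttk (1.01 ± 0.23) and Nuf2 (0.95 ± 0.23) with nSREBP2 and Spc25 with Lrp2 sh2 (0.73 ± 0.15). The counts of both lists with Lrp2 sh2 lie near the 8.59% of all genes that rose there.

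Of 8 condensin genes, which compact chromosomes, 5 rose with nSREBP2 and 4 with Lrp2 sh2, with Ncapd2 (0.45 ± 0.08) and Ncapg2 (0.68 ± 0.13) in the first, Ncaph (0.76 ± 0.14) in the second and Ncapg in both (0.92 ± 0.22 and 0.90 ± 0.18). In 14 other genes of mitotic entry and exit 4 rose with nSREBP2 and 4 with Lrp2 sh2, Plk4 (0.53 ± 0.15 and 0.44 ± 0.12) and Cks1b (0.66 ± 0.18 and 0.59 ± 0.18) in both, Cks2 (1.13 ± 0.21) with Lrp2 sh2. Gtse1, a G2 protein that binds p53, was the one gene of these lists other than Cdkn1a to rise with Lrp2 sh1. It measured 2.04, 1.55 and 0.982 CPM in the uninjected libraries, 3.93, 3.71 and 1.73 in GFP, 3.63, 4.55 and 3.54 in nSREBP2, 2.37, 3.43 and 2.61 in ctrl sh, 9.88, 7.02 and 7.296 in Lrp2 sh1 and 6.29, 9.67 and 7.33 in Lrp2 sh2. Its difference was 1.52 ± 0.21 with Lrp2 sh1 (adjusted P = 0.0039), 1.47 ± 0.23 with Lrp2 sh2 (adjusted P = 0.0024) and 0.34 ± 0.31 with nSREBP2 (adjusted P = 0.5).

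Markers of other cells of the eyecup also differed between groups. Fibroblast markers summed to 36338 to 46076 CPM in GFP and 75157 to 89592 in nSREBP2, where 11 of 12 rose, and to 34562 to 49258 in ctrl sh, 46291 to 55877 in Lrp2 sh1 and 44308 to 53158 in Lrp2 sh2, where 4 of 12 rose. Macrophage markers summed to 475 to 552 CPM in GFP and 1027 to 1199.6 in nSREBP2, where 10 of 12 rose, and to 483 to 507 in ctrl sh and 539 to 752 in Lrp2 sh2, where 2 of 12 rose. Endothelial markers were lower in both: 9 of 12 fell with nSREBP2 (3089 to 3902 CPM in GFP, 2489.8 to 2761 in nSREBP2) and 10 of 12 with Lrp2 sh2 (3313 to 3442 in ctrl sh, 2198 to 2419 in Lrp2 sh2).

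Rod photoreceptor markers summed to 302 to 434 CPM in nSREBP2 and 109 to 489 in Lrp2 sh2, against 45.7 to 346 in GFP and 46.1 to 70.4 in ctrl sh, and 2 of 12 rose with nSREBP2 and 10 of 12 with Lrp2 sh2. The 2 rod markers with nSREBP2 and the 2 macrophage markers with Lrp2 sh2 lie near the 12.6% and 8.59% of all genes that rose. The highest Lrp2 sh2 sum of rod markers was that of replicate 1, and the highest GFP sum that of replicate 3. Of 14 RPE markers 3 fell and 2 rose with nSREBP2, and 6 fell with Lrp2 sh2 (6775 to 9245 CPM in ctrl sh, 4581 to 5247 in Lrp2 sh2). The 2 RPE markers that rose likewise lie near the 12.6% of all genes. With Lrp2 sh1 no fibroblast, macrophage or rod marker rose. Falls with Lrp2 sh1 were 2 of 8 pericyte and smooth muscle markers, 1 of 14 RPE and 1 of 12 endothelial markers. Also falling there were 1 of 12 macrophage, 1 of 7 erythroid and 1 of 8 tested other retinal markers, against 2.28% of all genes. The median log2FC of the fibroblast markers was 0.13 with Lrp2 sh1 and 0.12 with Lrp2 sh2. Of 9 tested markers of other retinal cells 2 rose and 2 fell with nSREBP2, and 3 rose and 1 fell with Lrp2 sh2. Of 5 melanocyte markers 2 fell with nSREBP2 and 3 with Lrp2 sh2. Of 8 markers of pericytes and smooth muscle 3 fell with each and 1 rose with Lrp2 sh2, near the 8.59% of all genes. Of 7 erythroid markers 6 fell with Lrp2 sh2, and of the muscle markers 1 fell with nSREBP2. Cnga1, Elavl4, Gad1, Gngt1, Grm6, Myh4 and Opn1mw had no count in at least 1 library. The part of any of these cell types in the levels of the cell cycle genes was not tested.

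**Figure D5:**
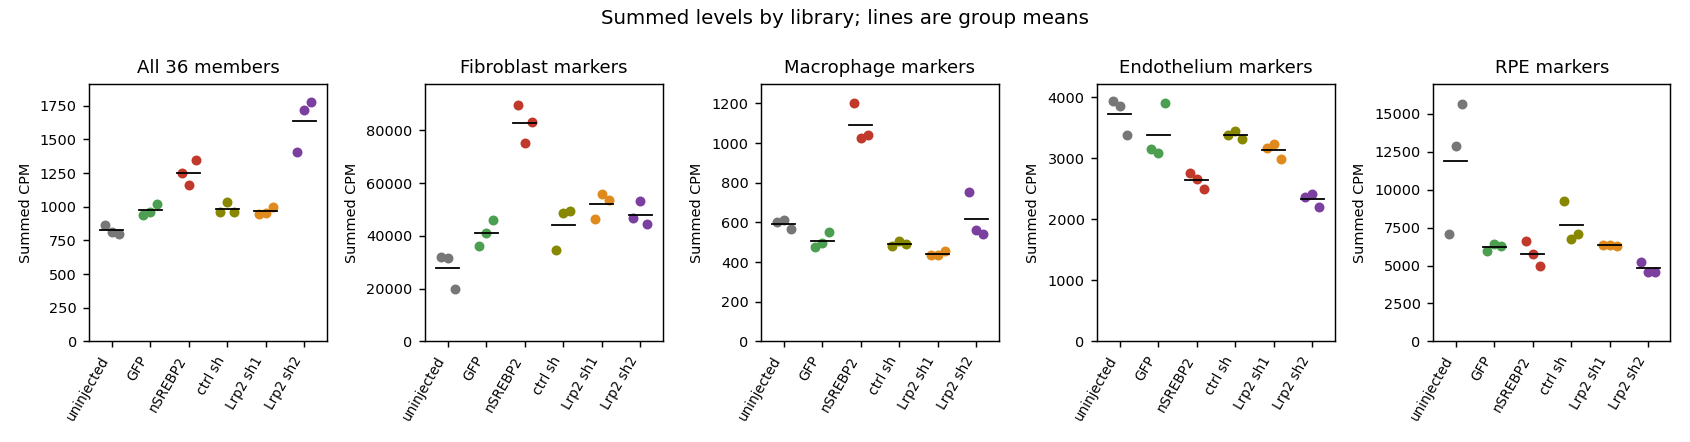
Summed CPM of the 36 genes and of 4 marker lists in each library (dots), with group means as lines and linear axes from 0. The sums of the 36 genes, fibroblast markers and macrophage markers are high in nSREBP2, the sum of the 36 genes is highest in Lrp2 sh2, and endothelial markers are lowest in Lrp2 sh2.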

How the data were processed

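Counts of 18 RNA-seq libraries were used, grouped by the sample labels. The deposited values are whole-number counts per gene, which the authors made from 150 bp paired-end reads of rRNA-depleted directional libraries with STAR 2.7.3a on GRCm38. The annotation and strand setting of the counting are not given in the sources used here. Positions came from GENCODE and promoters from RefSeq.

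Each comparison was fitted on its own libraries by the quasi-likelihood test of edgeR 4.0.16 (R 4.3.3) after filterByExpr and TMM scaling, with Benjamini-Hochberg adjustment over all genes tested. The SE of a log2FC was derived from its F statistic. Scripts were tested on simulated data, in which false calls exceeded the nominal rate when few genes changed, as may apply to Lrp2 sh1 versus ctrl sh and GFP versus uninjected. The floor for a gene with no count was set at 3 counts per library, 0.216 to 0.327 CPM, and covers counting error only. No 2 replicates of a group agreed within sampling noise.

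The 36 genes and the other lists were chosen with earlier results of these data known. Described singly were Mki67, Top2a, Cdk1, Ccnb1, Ccnd1, Ccnd2 and Pcna, up to 12 passing genes per study comparison by smallest P, and the widest difference in each comparison; up to 4 passing genes of each pathway list and the tested CDK inhibitors were also named. Alternatives were DESeq2 1.42.0, its size factors, library totals, other filters, joint fits, a sex term, a replicate block, uninjected controls and leaving out each library. Fits within 1 sex were added after seeing the data, and that of nSREBP2, with a single control library, is not reported.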

Additional observations from a re-analysis of the deposited data

Results flagged for a closer look

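The effects of the 2 Lrp2 hairpins differed by the direct test of Lrp2 sh2 versus Lrp2 sh1 in edgeR, although both target the same gene. The number of genes higher with Lrp2 sh2 was 23 of 36. Among the genes described singly, the log2FC was 0.78 for Mki67, 0.58 for Top2a, 1.23 for Cdk1, 0.82 for Ccnb1, 0.59 for Ccnd1 and 1.06 for Ccnd2, all higher with Lrp2 sh2, and -1.29 for E2f1, higher with Lrp2 sh1. Of the Lrp2 sh2 mice 2 of 3 were male and all Lrp2 sh1 mice were female. The part of sex in these differences was not tested beyond the fits given above.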

How the results depend on the processing

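Of 4134 log2FC values of single genes under the alternatives, 3702 kept their side of the threshold, 316 lost and 111 gained a call, and 5 reversed. A value was counted as reversed only if its sign changed and either fit passed. Changes of sign where neither fit passed are among the 3702. The 5 arose with uninjected eyes as the control: Mcm2 0.53, Mcm5 0.89, Ccnb1 1.12 and Tpx2 0.77 for Lrp2 sh1, and E2f1 0.51 for Lrp2 sh2. That control gave 14 genes with Lrp2 sh1 and 32 with Lrp2 sh2. The call of the study left 12 genes with nSREBP2, 3 with Lrp2 sh2, 5 in Lrp2 sh2 versus Lrp2 sh1, and 0 in the enlarged-eye contrast and in GFP or ctrl sh against uninjected. With a sex term, which came from the uninjected and Lrp2 sh2 groups alone, the counts were 8 for nSREBP2 and 9 for Lrp2 sh2. They were 5 for GFP versus uninjected, 13 for ctrl sh versus uninjected, 11 for Lrp2 sh2 versus Lrp2 sh1 and 11 for the enlarged-eye contrast. Female libraries alone, chosen after seeing the data, gave 4 for Lrp2 sh2, 7 for Lrp2 sh2 versus Lrp2 sh1 and 6 for the enlarged-eye contrast, which then holds no nSREBP2 library and 1 of Lrp2 sh2. All 18 libraries in one fit gave 8 for GFP versus uninjected and 17 for ctrl sh versus uninjected, where DESeq2 gave 10 and no filter on low counts 11. Leaving out 1 library gave 16 to 22 genes with nSREBP2, 1 to 1 with Lrp2 sh1, 11 to 21 with Lrp2 sh2, 0 to 3 for GFP versus uninjected, 1 to 8 for ctrl sh versus uninjected, 14 to 25 for Lrp2 sh2 versus Lrp2 sh1 and 20 to 25 for the enlarged-eye contrast. The cause of these changes was not tested.

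Replicate numbers were not treated as pairs, since in no comparison did all 3 same-numbered pairs correlate above 0.1. With 3 libraries per group this check cannot exclude pairing, and in Lrp2 sh2 versus Lrp2 sh1 the correlations were -0.007, 0.28 and 0.34. With the replicate number as a block, 13 genes passed with Lrp2 sh2, 1 in GFP versus uninjected, 2 in ctrl sh versus uninjected, 23 with nSREBP2, 1 with Lrp2 sh1, 23 in Lrp2 sh2 versus Lrp2 sh1 and 24 in the enlarged-eye contrast.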
